A study of Arabidopsis thaliana with 18 samples.

Results

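LEA4-5 (AT5G06760) and AT3G02480 belong to the late embryogenesis abundant (LEA) genes of Arabidopsis thaliana, and their transcripts were followed across leaves and roots of plants of the Columbia-0 ecotype. Both were taken by locus and are read by 1 probe set each, 2 of the 13286 genes that a probe set measures alone on an array of 22746 probe sets. RNA of whole organs was hybridised to 18 Affymetrix ATH1 arrays, 3 biological replicates in each of 6 groups according to the labels. The plants were wild type, raised in hydroponic MGRL medium. For each organ there were mock plants, osmotic plants, which stood in that medium with 0.3 M mannitol for 3 h under light, and plants whose label says osmotic and day 11. The last are read here as plants returned to basal medium for 1 day after stress, a step that the treatment protocol describes. Mock and osmotic samples carry the label of day 10 while the protocol speaks of plants aged 30 days, and the labels do not settle which age holds. A difference between day 11 and the other groups therefore also holds a day of age and the transfer. In whole organs, fewer cells of a type and less RNA per cell cannot be told apart.

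LEA proteins are hydrophilic, mostly unstructured proteins that accumulate when seeds dry and that protect other proteins and membranes from loss of water. In leaves and roots their genes are usually quiet and are switched on by drought, salt, cold or the hormone abscisic acid (ABA). LEA4-5 encodes a protein of the LEA_1 Pfam class, sometimes called group 4, which is known to protect enzymes in vitro during partial dehydration. AT3G02480 is assigned to the LEA_4 class, the largest of the Arabidopsis family, whose members can fold into helices on drying.

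The arrays were alike in scale, with medians of 6.55 to 6.69 on the log2 scale and lower quartiles of 4.27 to 4.5. The organ labels held: the 3 leaf markers measured lay 7.07 to 8.49 lower in mock roots than in mock leaves, and the 2 root markers measured lay 4.09 and 4.77 higher. All levels below are the deposited log2 expression values, and a level of 1 probe set is compared only with the same probe set in other groups.

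LEA4-5 was low in unstressed organs and high in stressed ones. In mock leaves its log2 levels were 5.82, 5.33 and 5.37, and in osmotic leaves they were 8.30, 8.99 and 7.87 (replicates 1 to 3). At day 11 the leaves were back at 5.09, 4.97 and 4.98. The osmotic leaf arrays stood apart from all other leaf arrays, and the day 11 leaves lay below every mock leaf.

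Roots showed a wider span for the same gene. Mock roots had log2 levels of LEA4-5 of 4.81, 4.93 and 4.58, osmotic roots 9.45, 9.41 and 8.99, and day 11 roots 4.64, 4.83 and 4.99. The osmotic root arrays lay above all mock and day 11 root arrays, while mock and day 11 roots overlapped.

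AT3G02480 followed the same course with more scatter. Its log2 levels were 5.42, 4.59 and 4.96 in mock leaves, 8.43, 9.79 and 8.45 in osmotic leaves and 4.84, 5.60 and 4.54 in day 11 leaves. In roots they were 5.95, 5.57 and 5.33 under mock, 8.64, 9.35 and 8.90 under mannitol and 4.09, 5.57 and 5.15 at day 11. The 6 osmotic arrays lay above the other 12, and the mock and day 11 arrays overlapped in both organs.

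**Figure D1:**
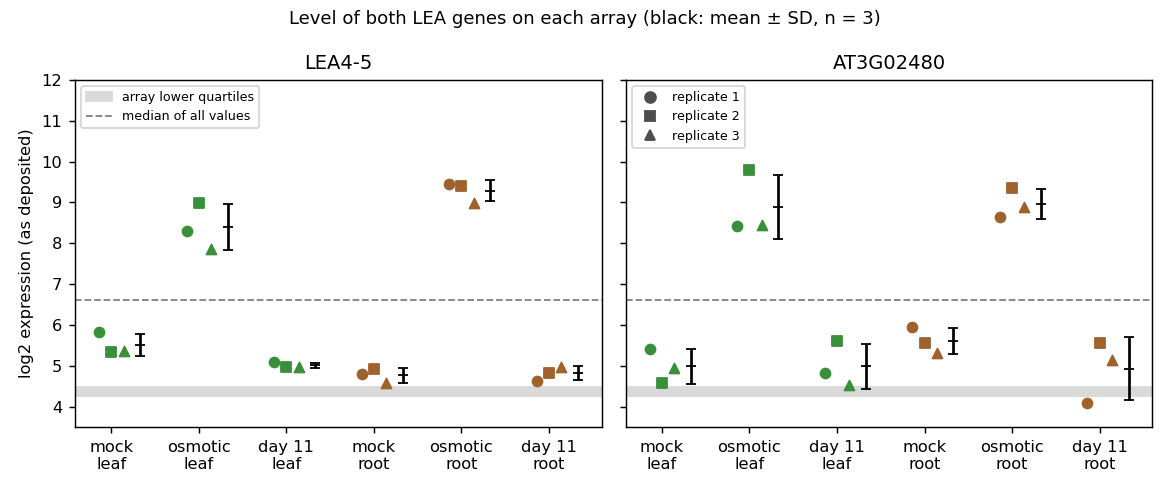
Log2 expression of LEA4-5 and AT3G02480 (y axis) on each of the 18 arrays by group (x axis), with replicates as symbols and the mean ± SD of 3 arrays in black. Grey marks the lower quartiles of the arrays (4.27 to 4.5) and the dashed line the median of all values (6.61). The osmotic arrays lie above the dashed line and all mock and day 11 arrays below it.

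Ordered by mean, LEA4-5 ran from mock roots (4.77 ± 0.18, SD, n = 3) over day 11 roots (4.82 ± 0.17), day 11 leaves (5.01 ± 0.06), mock leaves (5.51 ± 0.27) and osmotic leaves (8.39 ± 0.56) to osmotic roots (9.28 ± 0.26). Mock and day 11 roots overlapped, as did day 11 roots and day 11 leaves. Osmotic leaves and osmotic roots met at 1 array each, since the highest leaf and the lowest root array both stood at 8.99. The order for AT3G02480 was day 11 roots (4.94 ± 0.77), day 11 and mock leaves (4.99 ± 0.55 and 4.99 ± 0.42), mock roots (5.61 ± 0.32), osmotic leaves (8.89 ± 0.78) and osmotic roots (8.96 ± 0.36). For AT3G02480 only the step from mock roots to osmotic leaves separated neighbouring groups without overlap. Mock and day 11 levels of both genes lay below the median of every array, and 1 of the day 11 root arrays of AT3G02480 lay below the lower quartile of its array. Detection calls were not used here, so a low level may hold background signal, and the rises from it are then understated.

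Both genes rose in leaves under mannitol. AT3G02480 increased 14.9-fold, by 3.90 ± 0.39 on the log2 scale (SE, limma adjusted p = 2.6e-06), and LEA4-5 increased 7.36-fold, by 2.88 ± 0.22 (limma adjusted p = 1.9e-07). Of all 22746 probe sets, 8.62% rose in osmotic leaves and 12% fell, or 11.1% and 9.22% after each array was centred on its median. Ranked by log2 change, AT3G02480 was at place 3 and LEA4-5 at place 24 among these probe sets.

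In roots the order of the rises was the other way round. LEA4-5 increased 22.8-fold, by 4.51 ± 0.22 (limma adjusted p = 9.5e-11), and AT3G02480 increased 10.2-fold, by 3.35 ± 0.39 (limma adjusted p = 3.4e-06). In roots, 10.6% of the probe sets rose and 13.7% fell, or 14.2% and 10.4% after centring. LEA4-5 was at place 24 and AT3G02480 at place 73. In both organs 2 other probe sets rose at least as much as LEA4-5, and 1 other at least as much as AT3G02480. Of the 3 leaf markers, RCA fell by 1.03 and PSAE-1 rose by 1.04 in osmotic roots, and PRK fell by 0.47 in osmotic leaves. The root markers EXPA7 and EXPA18 passed in neither organ, with log2 changes of -0.20 and 0.06 in leaves and 0.22 and -0.28 in roots. The part of these shifts in the rises of the pair was not tested.

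Whether the organs differed in their response was tested as an interaction. The rise of LEA4-5 was larger in roots than in leaves by 1.63 ± 0.31 on the log2 scale, a 3.10-fold difference (limma adjusted p = 0.0016, 95% interval 0.97 to 2.29), where 15.4% of probe sets passed in either direction. That difference held a lower start and a higher end in roots. LEA4-5 was lower in mock roots than in mock leaves by a log2 change of -0.74 ± 0.22 (limma adjusted p = 0.0079) and higher in osmotic roots than in osmotic leaves by 0.89 ± 0.22 (limma adjusted p = 0.0019). These organ contrasts passed for 56.5% and 55.9% of all probe sets. The call in mock plants ended without mock leaf replicate 1, the highest of the 3 (-0.58, limma adjusted p = 0.05).

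For AT3G02480 the organ difference of the response was -0.55 ± 0.55 (limma adjusted p = 0.57). Its 95% interval ran from -1.70 to 0.60, and a smaller and a larger response in roots both lie within it. Its root minus leaf difference was 0.62 ± 0.39 in mock plants (limma adjusted p = 0.19), 0.07 ± 0.39 in osmotic plants (limma adjusted p = 0.89) and -0.06 ± 0.39 at day 11 (limma adjusted p = 0.91). With the mock arrays alone in the fit, the mock difference passed the threshold (limma adjusted p = 0.038). LEA4-5 at day 11 differed between organs by -0.19 ± 0.22 (limma adjusted p = 0.48). At day 11, 58.5% of probe sets differed between organs.

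**Figure D2:**
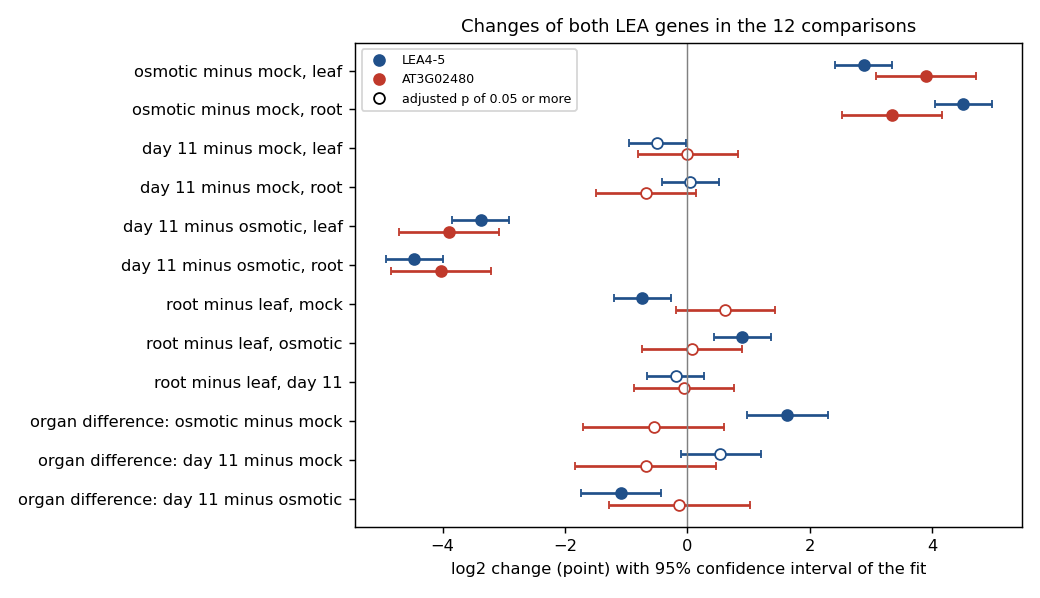
Log2 changes (x axis) of LEA4-5 and AT3G02480 in the 12 comparisons (y axis), with bars for the 95% confidence interval of the limma fit over 18 arrays. Open points had an adjusted p of 0.05 or more. Both genes rise under mannitol and fall at day 11 in both organs, and the interval of the organ difference of the mannitol response lies above 0 for LEA4-5 alone.

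The comparison of day 11 with osmotic plants followed the genes after the return to basal medium. Both fell in both organs. In leaves AT3G02480 fell by 3.90 ± 0.39 (limma adjusted p = 2.5e-06) and LEA4-5 fell by 3.38 ± 0.22 (limma adjusted p = 2.5e-08), where 7.96% of probe sets fell. In roots LEA4-5 fell by 4.46 ± 0.22 (limma adjusted p = 2.2e-10) and AT3G02480 fell by 4.03 ± 0.39 (limma adjusted p = 5.9e-07), where 8.85% of probe sets fell. By size of the fall, AT3G02480 was at place 3 and LEA4-5 at place 9 in leaves, and LEA4-5 at place 14 and AT3G02480 at place 20 in roots.

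The fall of LEA4-5 was larger in roots by a log2 difference of -1.09 ± 0.31 (limma adjusted p = 0.029, where 12% of probe sets passed). This call rested on single arrays: it ended in 7 of 12 fits that left out 1 array, over which the log2 difference ran from -1.39 to -0.83 and the adjusted p from 0.0022 to 0.071. These 7 left out osmotic leaf replicate 1 or 3, osmotic root replicate 1 or 2, day 11 leaf replicate 1, or day 11 root replicate 1 or 2. For AT3G02480 the difference was -0.13 ± 0.55 (limma adjusted p = 0.92, 95% interval -1.28 to 1.02).

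Against mock, neither gene passed the test at day 11. LEA4-5 stood at a log2 change of -0.50 ± 0.22 in leaves (limma adjusted p = 0.3, unadjusted p = 0.038, 95% interval -0.96 to -0.03) and 0.05 ± 0.22 in roots (limma adjusted p = 0.93, 95% interval -0.42 to 0.51). AT3G02480 stood at 0.00 ± 0.39 in leaves (limma adjusted p = 1, 95% interval -0.81 to 0.82) and -0.68 ± 0.39 in roots (limma adjusted p = 0.32, 95% interval -1.49 to 0.14). Calls against mock were made for 1.09% of probe sets in leaves and 7.65% in roots. The upper ends of these intervals lie far below the log2 rises of 2.88 to 4.51 under mannitol. The organ difference of day 11 minus mock was 0.54 ± 0.31 for LEA4-5 (limma adjusted p = 0.44) and -0.68 ± 0.55 for AT3G02480 (limma adjusted p = 0.61), where 2.29% of probe sets passed.

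Because each array measures both genes, their log2 difference within an array (LEA4-5 minus AT3G02480) shows whether their signals changed by unequal amounts. Both started low, where background signal may hold down a rise, so unequal changes of signal need not be unequal changes of RNA. In leaves this difference was 0.40, 0.74 and 0.41 on the mock arrays and -0.12, -0.80 and -0.58 on the osmotic arrays, a change of -1.02 with no overlap (exact two-sided permutation p = 0.1, the smallest that 3 arrays against 3 allow). In roots it was -1.14, -0.64 and -0.75 on the mock arrays and 0.82, 0.06 and 0.09 on the osmotic arrays, a change of 1.17 with no overlap (exact two-sided permutation p = 0.1). The mean change was thus larger for AT3G02480 on the leaf arrays and for LEA4-5 on the root arrays, in a design that cannot reach the threshold of 0.05. At day 11 the within-array difference averaged 0.02 ± 0.57 (SD, n = 3) in leaves and -0.11 ± 0.65 in roots and overlapped with the mock and the osmotic arrays (exact permutation p = 0.2 to 0.4).

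**Figure D3:**
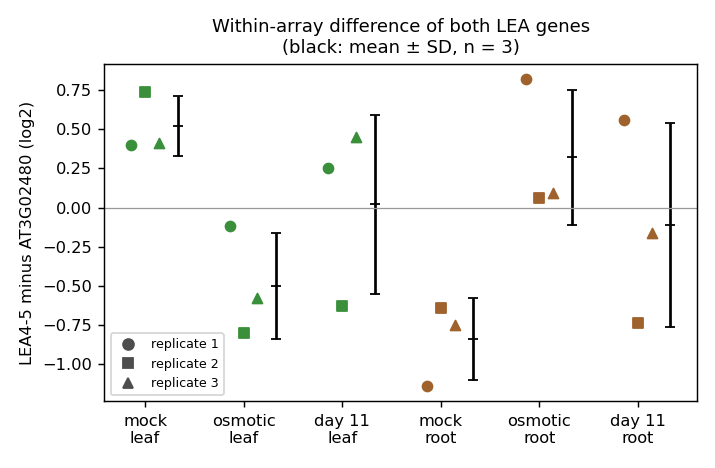
Log2 level of LEA4-5 minus that of AT3G02480 on the same array (y axis) by group (x axis), with replicates as symbols and the mean ± SD of 3 arrays in black. The osmotic arrays lie below the mock arrays in leaves and above them in roots.

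The scatter of the genes within groups was partly shared. Deviations from the group mean correlated between LEA4-5 and AT3G02480 with r = 0.63 over 18 arrays, or r = 0.44 over 15 arrays without osmotic leaves. This is a description of arrays that share RNA and normalisation. Osmotic leaf replicate 2 was the highest of its group for both genes, at 8.99 and 9.79. Counting the pair, it was the highest for 7 of the 12 LEA family genes that rose in leaves. Osmotic root replicate 1 was the highest for 10 of the 13 that rose in roots, LEA4-5 among them. The share over all probe sets was not counted. Without osmotic leaf replicate 2 the leaf rises were 2.58 for LEA4-5 and 3.45 for AT3G02480, and both remained past the threshold (limma adjusted p = 3.5e-07 and 1.3e-05). Whether these arrays stand apart from the others was not tested.

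The pair was then set beside the rest of its family. Of 52 LEA family genes listed, the annotation used here paired 36 with a probe set of their own, 34 besides the pair. Of these 34, 10 rose and 0 fell in osmotic leaves, where 8.62% of all probe sets rose and 12% fell (median log2 change 0.18, against 0.00 over all probe sets). In osmotic roots 11 rose and 1 fell, where 10.6% of all probe sets rose and 13.7% fell (median 0.11, against -0.01). The pair had the highest log2 changes of the 36 in each organ. Against osmotic plants, 11 of the 36 fell in day 11 leaves, or 9 of the 34 besides the pair, where 7.96% of all probe sets fell. In day 11 roots 10 fell and 1 rose, or 8 and 1 of the 34, where 8.85% of all probe sets fell and 10.2% rose. The gene that rose was AT3G53770, by 1.43 ± 0.27 (limma adjusted p = 0.00081). Against mock at day 11, 0 of the 36 passed in either organ by limma, where 1.09% of all probe sets passed in leaves and 7.65% in roots. At such shares 0 of 36 says little about the family, least of all in leaves. An unadjusted p under 0.05 was found for 4 in leaves and 4 in roots, without a count over all probe sets. With array weights 1 of the 34 was below mock in leaves, and 1 above and 1 below in roots. That setting called 1515 of 22746 probe sets in leaves and 3423 in roots. The count below mock in roots changed in 2 of 7 alternatives, array weights among them. Without day 11 root replicate 1 there was also 1 above and 1 below in roots. Part of the family was dim: 15 of 36 genes had all 6 group means below 4.5, the highest lower quartile of an array, and 2 of those 15 were called in an organ. The share called among all probe sets as dim was not counted.

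**Figure D4:**
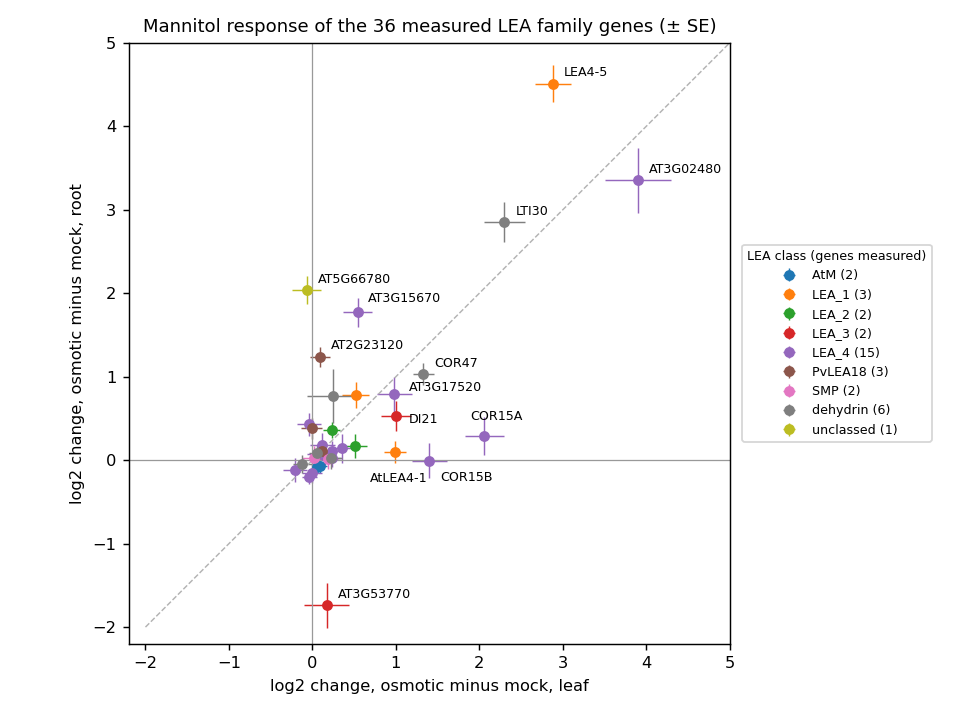
Log2 change from mock to osmotic in leaves (x axis) and roots (y axis) of the 36 measured LEA family genes, coloured by class, with SE of the limma fit and the line of equal change dashed. LEA4-5 (2.88 and 4.51) and AT3G02480 (3.90 and 3.35) lie beyond the other members, next to the dehydrin LTI30 (2.30 and 2.85).

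The closest relatives of LEA4-5 moved less. AtLEA4-1 (AT1G32560) and LEA18 (AT2G35300, also called LEA4-2) are the other genes of the LEA_1 class. AtLEA4-1 had log2 levels of 3.61, 3.67 and 3.41 in mock and 4.17, 4.75 and 4.73 in osmotic leaves, a rise of 0.99 ± 0.13 (limma adjusted p = 4.5e-05). In roots AtLEA4-1 stood at 0.10 ± 0.13 (limma adjusted p = 0.65), and its organ difference of -0.89 passed (limma adjusted p = 0.0028), opposite in sign to that of LEA4-5. LEA18 rose by 0.52 ± 0.16 in leaves (limma adjusted p = 0.028) and by 0.78 ± 0.16 in roots (limma adjusted p = 0.0016), with all 6 group means below 4.5. Both levels lie near or under the lower quartile of the arrays, so these changes rest on dim signals.

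Within the LEA_4 class, 5 of 15 measured genes rose in leaves and 4 of 15 in roots, beside 8.62% and 10.6% of all probe sets. AT3G02480 itself is counted in each of these. AT3G15670 rose by 0.54 in leaves and 1.77 in roots, with a larger response in roots by 1.23 (limma adjusted p = 0.0017). AT3G17520 rose by 0.98 and 0.79. COR15A (AT2G42540) and COR15B (AT2G42530), which encode chloroplast stress proteins, rose by 2.06 and 1.40 in leaves, against 0.29 and -0.01 in roots, an organ difference of -1.77 and -1.41 (limma adjusted p = 0.0013 and 0.0031). Their root means of 4.23 to 4.52 lay near the lower quartiles of the arrays. AT4G13230 stood at -0.04 in leaves and rose by 0.43 in roots. The other 9 of the class passed in neither organ. Their log2 changes in leaves and roots were 0.15 and 0.05 for AT1G72100, -0.21 and -0.12 for AT2G03740, 0.12 and 0.18 for AT2G03850, 0.00 and -0.15 for AT2G18340, and 0.36 and 0.14 for AT2G42560. They were 0.23 and 0.11 for AT3G53040, -0.04 and -0.20 for AT4G21020, 0.24 and 0.02 for AT4G36600, and 0.08 and 0.07 for AT5G44310.

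Among the dehydrins, LEA proteins that bind membranes and ions, 2 of 6 rose in each organ, beside the same 8.62% and 10.6% of all probe sets. They were LTI30 (AT3G50970) by 2.30 in leaves and 2.85 in roots, and COR47 (AT1G20440) by 1.33 and 1.03. The other dehydrins stood at 0.22 and 0.02 (AT1G54410), 0.05 and 0.09 (LEA, AT2G21490), 0.25 and 0.77 (AT4G38410), and -0.12 and -0.05 (AT4G39130) in leaves and roots. DI21 (AT4G15910), of the LEA_3 class, rose by 1.00 and 0.53. AT3G53770 of the same class stood at 0.17 in leaves and fell by 1.74 in roots (limma adjusted p = 8.8e-05), the single fall in the family under mannitol, with an organ difference of -1.91 (limma adjusted p = 0.0022). All its leaf arrays lay below the lower quartile, so a fall in leaves could hardly show. With array weights 2 of the 34 fell in roots in place of 1, where 13.7% of all probe sets fell in the fit without weights.

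The remaining classes were small. AT2G46140 of the LEA_2 class rose by 0.51 in leaves, with 0.17 in roots, and AT2G44060 stood at 0.23 in leaves and rose by 0.36 in roots. Of the PvLEA18 class, AT2G23120 stood at 0.09 in leaves and rose by 1.24 in roots, an organ difference of 1.15 (limma adjusted p = 0.00013). AT2G23110 stood at -0.01 and rose by 0.38 in roots, and AT2G33690 stood at 0.11 in both. AT5G66780, placed in no class here, stood at -0.07 in leaves and rose by 2.04 in roots, with an organ difference of 2.11 (limma adjusted p = 1.1e-05). All its leaf arrays lay below the lower quartile. The seed maturation proteins AT3G22490 (0.02 and 0.02) and AT5G27980 (0.19 and 0.01) and the AtM class genes M17 (0.06 and -0.08) and M10 (0.09 and -0.07) passed in neither organ.

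In all, 8 of the 36 rose in both organs, LEA4-5 and AT3G02480 among them, where 3.43% of all probe sets did so. A further 4 rose in leaves without a call in roots and 5 in roots without a call in leaves. For rises in 1 organ alone the share over all probe sets was not counted. Besides LEA4-5, 3 genes had a larger and 4 a smaller response in roots by the interaction test, against 7.77% and 7.68% of all probe sets. With dim probe sets left out, 1 gene in place of 3 had a larger response in roots, and that filter takes family members out of the fit. A shorter list, of LEA and dehydrin genes by RefSeq synonym, lies wholly within the family list and had 7 of 14 genes measured. Of these, 4 rose in leaves and 3 in roots, LEA4-5 among them in both organs, beside 8.62% and 10.6% of all probe sets. These calls are part of those above and give no separate support.

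Genes whose pattern was most like each of the pair were sought among 13285 others, by Pearson r over the 18 arrays, as a description of points that share arrays and groups. By this measure alone LEA4-5 and AT3G02480 were each other's nearest gene (r = 0.950 over arrays). Their r over the 6 group means was 0.968 and their Spearman rho 0.622. Next to LEA4-5 came AT4G03820 (r = 0.945), AT1G16850 (0.926), AT4G08170 (0.921) and AT3G43270 (0.919). Next to AT3G02480 came AT1G24600 (r = 0.949), AT1G67920 (0.938), AT4G03820 (0.932) and AT1G28260 (0.931). AT1G16850 moved most of these, by 2.24 ± 0.19 in osmotic leaves and 2.24 ± 0.19 in osmotic roots. AT4G08170 moved by 0.33 ± 0.12 (limma adjusted p = 0.054) and 0.66 ± 0.12 (limma adjusted p = 0.00037), so a high r says that the shape was alike and not that the size was. The ranking depended on the measure. By r over group means 1 of the 5 nearest genes stayed for each, and by Spearman rho 0 stayed for LEA4-5 and 2 for AT3G02480. The pair itself was lost: under both measures neither gene was among the 5 nearest of the other. By group means AT4G08170 (r = 0.983) stood above AT3G02480 for LEA4-5, and AT4G03820 (r = 0.982) stood above LEA4-5 for AT3G02480.

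**Figure D5:**
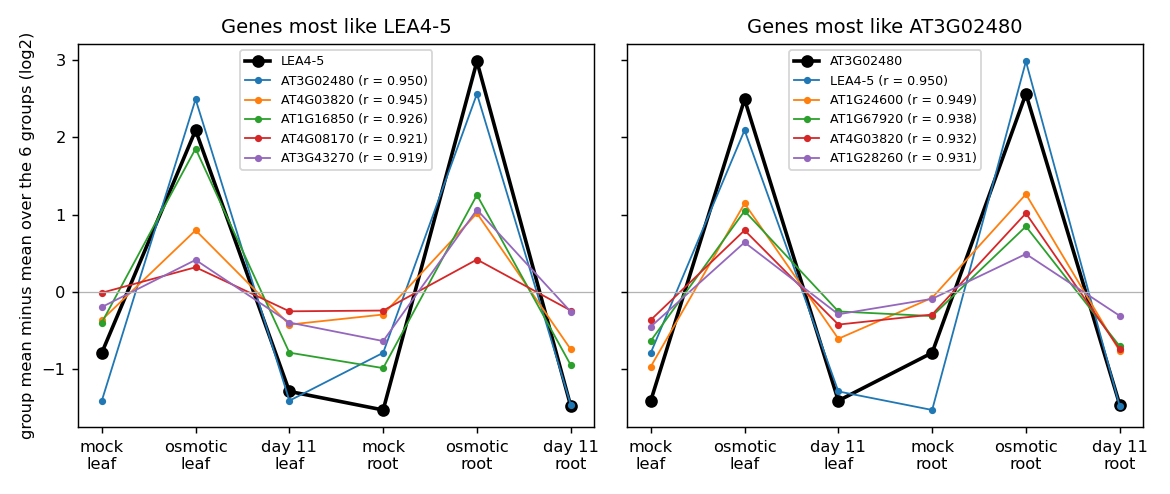
Group means minus the mean over the 6 groups on the log2 scale (y axis) by group (x axis) for each LEA gene in black and the 5 genes of highest Pearson r over 18 arrays in colour. All lines peak in osmotic leaves and osmotic roots, with peaks for most of the coloured lines lower than for LEA4-5 and AT3G02480.

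Other ABA and drought genes were measured only in part. Of 32 ABA- and drought-induced genes outside the family, the annotation gave 5 their own probe set. Of these, 4 rose and 1 fell in osmotic leaves, where 8.62% of all probe sets rose and 12% fell. In osmotic roots 2 rose and 1 fell, where 10.6% rose and 13.7% fell. PUB19 (AT1G60190), a U-box ubiquitin ligase, rose by 3.22 ± 0.23 in leaves and by 1.92 ± 0.23 in roots, and PUB24 (AT3G11840) of the same family rose by 1.18 ± 0.27 and by 1.84 ± 0.27. HIS1-3 (AT2G18050), a drought-inducible linker histone, rose by 1.64 ± 0.48 in leaves (limma adjusted p = 0.02), with -0.54 ± 0.48 in roots (limma adjusted p = 0.46). For XERICO (AT2G04240), whose RING-type product promotes build-up of ABA, leaves gained 0.92 ± 0.14, and in roots it fell by 0.63 ± 0.14. HVA22C (AT1G69700) fell by 0.59 ± 0.15 in leaves, with 0.29 ± 0.15 in roots. Of 14 seed maturation genes 1 was measured, the oleosin gene OLEO3 (AT5G51210), at -0.10 ± 0.15 in leaves (limma adjusted p = 0.72) and -0.32 ± 0.15 in roots (limma adjusted p = 0.13). The annotation paired none of 40 listed genes of ABA synthesis, breakdown and core signalling with a probe set of its own, and it named no gene for 8730 of the 22746 probe sets, so these genes were not analysed here.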

How the data were processed

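The authors deposited log2 expression values per probe set, 1 column per array and 22810 probe sets. How they summarised and normalised the arrays is not given in the sources used here. Values of 2.38 to 13.9 set the log base, their top lying between the natural logarithm (11.1) and the log2 (16) of the highest 16-bit intensity. The 64 control probe sets were left out. The platform annotation gave 13513 of 22746 probe sets 1 gene, 503 several and 8730 none, and 13436 matched RefSeq. A gene with more than 1 probe set was represented by the brightest. No coordinates are given, since no build is named with the values.

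Limma 3.58.1 in R 4.3.3 fitted a mean per group to all 18 arrays and all 22746 probe sets, with eBayes and trend. P-values were Benjamini-Hochberg adjusted within each comparison over all probe sets, with a threshold of 0.05. The fit was tested on simulated data. Within-array differences were tested by exact permutation in SciPy 1.17.1. Array number limits precision: within groups, probe sets had a median SD of 0.124 to 0.174. Named were both genes, every measured LEA family gene, the 5 genes of highest Pearson r to each, and up to 4 called and 2 other members of each further list. LEA classes were assigned from general knowledge after the values were seen. The genes and lists were chosen with earlier results of these data known. Alternatives were median centring, quantile normalisation, a filter on dim probe sets, eBayes without trend, array weights, fits on the compared groups, a replicate block and leaving out each array.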

Additional observations from a re-analysis of the deposited data

Results flagged for a closer look

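The response to mannitol differed between organs for LEA4-5 by an interaction test, with a root minus leaf difference of 1.63 (limma adjusted p = 0.0016), and so did its fall at day 11, with -1.09 (limma adjusted p = 0.029). The second call ended in 7 of 12 fits without a single array (adjusted p up to 0.071) and with the compared groups alone (limma adjusted p = 0.053). Among the 34 other LEA family genes the root minus leaf difference of the mannitol response passed for 7 (20.6%), where 15.4% of all probe sets passed. It was above 0 for AT5G66780 at 2.11 (limma adjusted p = 1.1e-05), AT3G15670 at 1.23 (limma adjusted p = 0.0017) and AT2G23120 at 1.15 (limma adjusted p = 0.00013). It was below 0 for AtLEA4-1 at -0.89 (limma adjusted p = 0.0028), COR15B at -1.41 (limma adjusted p = 0.0031), COR15A at -1.77 (limma adjusted p = 0.0013) and AT3G53770 at -1.91 (limma adjusted p = 0.0022). All leaf arrays of AT3G53770 (means 3.05 to 3.22) and AT5G66780 (3.25 to 3.35) lay below the lower quartile. Root arrays of AtLEA4-1 (3.51 to 3.64) did so too. COR15A and COR15B had root means of 4.23 to 4.52, near the lower quartiles. AT3G15670 lay below in mock plants of both organs, while AT2G23120 was bright in both (10.77 to 12.2). A change in a dim organ may be hidden by background signal. The within-array difference of LEA4-5 and AT3G02480 moved in opposite directions in the organs, with a change of -1.02 in leaves and 1.17 in roots and no overlap between mock and osmotic arrays in either. The difference between these changes was not tested.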

How the results depend on the processing

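Over 24 results for LEA4-5 and AT3G02480 and 348 combinations with an alternative, 320 kept their direction and their side of the threshold. The rises under mannitol and the falls at day 11 did so in all. The dim filter is no test of these, as it kept the pair through osmotic levels alone. Without single arrays leaf rises ran from 2.58 to 3.14 for LEA4-5 and 3.45 to 4.13 for AT3G02480. Changes of direction touched only differences that had not passed. For AT3G02480, day 11 minus mock in leaves was -0.01 after quantile normalisation, -0.04 with array weights and -0.30 to 0.23 without single arrays. Root minus leaf for AT3G02480 was -0.01 with array weights and -0.16 to 0.52 without single arrays in osmotic plants, and -0.37 to 0.37 at day 11. Its organ difference of day 11 minus osmotic ran from -0.58 to 0.30, and LEA4-5 in day 11 roots from -0.05 to 0.14 against mock. With the compared groups alone, AT3G02480 in mock organs passed (0.62, limma adjusted p = 0.038) and LEA4-5's organ difference of day 11 minus osmotic did not (-1.09, limma adjusted p = 0.053; -1.39 to -0.83 without single arrays). LEA4-5 in mock roots against leaves ran from -0.83 to -0.58 without single arrays. The causes were not tested.

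The replicate numbers showed no pairing over all groups. In 0 of 15 pairs of groups did all same-numbered arrays correlate above 0.1 (-0.29 to 0.35), and 7 of 18 arrays correlated best with their own number. Pairing within an organ is not settled by this rule. Mock and day 11 leaves correlated at 0.35, 0.06 and 0.25 for the same number and at -0.35 to 0.14 for others. Mock and osmotic leaves stood at -0.05, -0.29 and 0.12 for the same number. With the replicate block, LEA4-5 rose by 2.88 in leaves (limma adjusted p = 2.5e-07), and no call for either gene changed.

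Counts of called probe sets moved more. With array weights they were 1515 and 3423 for day 11 minus mock in leaves and roots (248 and 1741 as reported) and 1274 for its organ difference (520). With the compared groups alone they were 3063 for osmotic minus mock (4694), 127 for day 11 minus mock and 1795 for day 11 minus osmotic (3888), all in leaves. Without single arrays they ran from 3048 to 5248, 92 to 294 and 2423 to 4002 for these leaf comparisons, from 790 to 1343 for day 11 minus mock in roots and from 250 to 525 for its organ difference. Moves over 1.5 times came for osmotic minus mock and day 11 minus osmotic in leaves without osmotic leaf replicate 2, for day 11 minus mock in leaves without mock leaf 1, mock leaf 3 or day 11 leaf 3, and in roots without each array but day 11 root 3. For the organ difference of day 11 minus mock they came without mock leaf 2 or 3, mock root 1 or 3, day 11 leaf 3 or day 11 root 2. Centring moved the share of rises among calls in osmotic minus mock from 41.8% to 54.5% in leaves and from 43.7% to 57.7% in roots. Among the other LEA genes, 6 rose in leaves and 5 in roots without dim probe sets. Then 1 in place of 3 had a larger mannitol response in roots, and 5 in place of 8 fell from osmotic to day 11 roots. The filter kept 14182 of 22746 probe sets. How many of the other LEA genes it removed was not counted, so the lower counts do not say that a smaller share responded. The log2 changes of dim genes are limited by background signal.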
